A study of Mus musculus with 9 samples.

Results

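The cytosolic ribosomal protein genes were followed through liver regeneration. Members were the protein-coding genes of the deposited table whose symbol begins with Rpl or Rps and a number, together with *Rpsa*, *Rplp0*, *Rplp1* and *Rplp2*, leaving out the Rps6k kinases and names that mark pseudogenes. The rule used names and the gene type and no measured value, and it found 87 of the 43346 genes listed. Of these, 84 passed the filter on low counts, among 15024 genes tested.

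RNA-Seq of whole liver was available from 9 libraries in 3 groups of 3, all from WT C57/BL6 mice aged 12 weeks. The methods describe the mice as male. The baseline group was liver removed at hepatectomy (0 h) from vehicle-treated mice. The vehicle 40 h group was the remnant 40 h after removal of 70% of the liver in mice given normal saline, and the NSC 40 h group was the remnant of mice given NSC-87877 (NSC), a small molecule inhibitor of SHP1 and SHP2, at 7.5 mg/kg per dose, with 2 doses a day i.p. from before surgery until tissue was taken. The same 3 baseline libraries served for both 40 h groups, since liver resected under NSC was not analysed here. The labels number the libraries without tying them to animals, so p-values measure the spread between these samples.

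Each ribosome is built from a small subunit, which reads the messenger RNA, and a large subunit, which joins the amino acids. A cell needs one copy of nearly every ribosomal protein per ribosome, and the genes are abundant and broadly expressed. In vertebrates their messenger RNAs usually begin with a terminal oligopyrimidine (TOP) tract, an unbroken stretch of C and T at the 5′ end through which growth signals that pass through mTOR control their translation. A regenerating liver rebuilds its mass within days and makes many new ribosomes in doing so. RNA-Seq measures the amount of a messenger RNA and not its translation.

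Start-site sequences of 6 members, from the RefSeq promoter table of GRCm38.p6, show what the family shares at its starts and how a near-copy can hide within it. Each line gives 6 bases before the annotated start and 24 bases from the start on, with the longest run of pyrimidines in that stretch in capitals. *Rpl35*, *Rpl18* and *Rps6* are shown for a run of pyrimidines at or near the annotated start, and *Rpl22l1* as the member with the largest change in the counts. *Rps27* and its copy *Rps27rt* are shown because the counts of the 2 genes cannot be fully told apart.
Rpl35 (chr2:39005108-39005137, minus strand): CCTTTCCTCTTTCTCTCgaaccaggctgct
Rpl18 (chr7:45718065-45718094, plus strand): caggccgCTCTTTCCCCgcccactccggcg
Rps6 (chr4:86857344-86857373, minus strand): tcgggCCTCTTTTTCgtgacgcctcccagg
Rpl22l1 (chr3:28805502-28805531, plus strand): aagcccgTTCTCTTCCCacggctgcagctc
Rps27 (chr3:90213625-90213654, minus strand): ttcgCTCCTTTCCggcggtgacgacctccc
Rps27rt (chr9:114982716-114982745, minus strand): cccttgctttccggcggtgacgaCCTCCCT

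Within the printed bases, the longest pyrimidine run had 17 bases in *Rpl35*, 10 in *Rpl18*, 10 in *Rps6* and 10 in *Rpl22l1*. In *Rpl35* it began at the first printed base, so the whole run may be longer. In *Rpl18* and *Rpl22l1* it began at base 2 from the annotated start, after a G. The table held a window for 66 of the 87 members. A run of at least 8 pyrimidines lay within 50 bases of the start, on the strand of the gene, in 53 of the 66 (80.3%), against 38.7% of 15855 protein-coding genes with a window. The letters CTTTCC occurred on that strand in the same stretch in 31.8% of members and in 5.12% of genes, and such a match can lie inside a pyrimidine run. The letters CCGGAAG, the core of binding sites for ETS factors, occurred on either strand in the whole window of 300 bases in 39.4% of members and in 13.2% of genes. These searches were chosen after the counts had been seen, and a match is a description of the letters only.

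The family was abundant in every liver. Its 87 genes took 1.29% ± 0.034 (SD, n = 3) of all counts at baseline, 1.47% ± 0.109 in vehicle remnants and 1.62% ± 0.458 in NSC remnants. The library totals ran from 31187349 to 33943842 counts at baseline, from 27956396 to 42887589 in vehicle remnants and from 23997363 to 30201051 in NSC remnants. On the per-length scale (FPKM, counts scaled by gene length and library total), the tested members ranged from 7.96 to 579 as means over the 9 libraries, with a median of 108 against 3.1 over all genes tested. All 84 tested members lay above that median of all genes.

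The 3 highest members by mean FPKM were *Rplp1* at 579, *Rps27* at 533 and *Rpl4* at 470. *Rplp1* encodes one of the acidic proteins of the P-stalk, the arm of the large subunit that recruits elongation factors. The 3 lowest tested members were *Rps4l* at 7.96, *Rps19bp1* at 11.9 and *Rps15a* at 20.8 FPKM. *Rps4l* is a paralog of *Rps4x*, and *Rps19bp1* entered by its name alone, since it encodes a protein that binds Rps19 and no subunit of the ribosome. *Rps15a* is a canonical small subunit gene whose deposited length of 6262 bases far exceeds the median of 1454 bases over tested members, and its FPKM divides by that length.

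The 3 members that did not pass the filter are paralogs of canonical large subunit genes that are best known from other tissues. *Rpl10l*, a testis paralog of *Rpl10*, had 0 counts in each of the 9 libraries, where 3 counts would be 0.07 to 0.125 CPM (counts scaled to the library total). *Rpl3l*, a paralog of *Rpl3* used in striated muscle, had 0 to 4 counts in a library. *Rpl39l*, a testis paralog of *Rpl39*, had 0 to 3 counts in a library. Their canonical partners stood at 84.6 FPKM (*Rpl3*), 170 FPKM (*Rpl10*) and 86.9 FPKM (*Rpl39*).

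A first pattern concerned the libraries and not the groups, and it bears on every comparison with NSC. For each gene, the log2 CPM in a library was taken minus the gene's mean over the 9 libraries. The median of this deviation over the 84 members was -0.10, -0.07 and -0.10 in the 3 baseline libraries and 0.01, 0.06 and 0.10 in the 3 vehicle libraries. In the NSC libraries it was -0.31 in replicate 1, -0.06 in replicate 2 and 0.50 in replicate 3. The 3 NSC livers thus spanned more than the baseline and vehicle livers together.

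**Figure D1:**
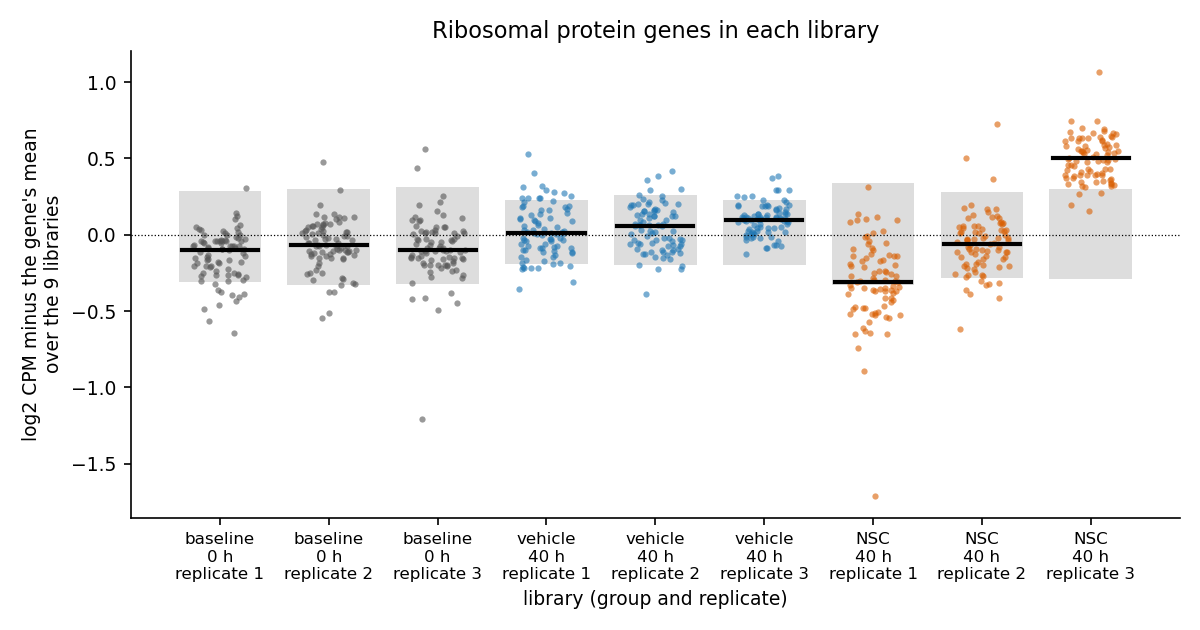
Each point is 1 of 84 ribosomal protein genes, plotted as log2 CPM minus the gene's mean over the 9 libraries (y axis) in each library (x axis, by group and replicate). Black lines mark the member median and grey boxes the middle 50% of all genes tested. NSC replicate 3 has a member median of 0.50 and NSC replicate 1 one of -0.31.

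NSC replicate 3 held the highest of the 9 values for 80 of 84 members (95.2%), against 13.1% of all genes tested. NSC replicate 1 held the lowest value for 49 members (58.3%), against 17.4% of genes. The ratio of replicate 3 to replicate 1 was above 1 for all 84 members, with a median of 1.72 and a range of 1.23 to 5.21, while its median over all genes was 1.01. The 3 NSC libraries stood in the order replicate 3, 2, 1 from high to low for 77 members (91.7%) and for 24.3% of genes. The median SD of log2 CPM within a group was 0.0907 at baseline, 0.0941 in vehicle remnants and 0.408 in NSC remnants for the members, against 0.2, 0.219 and 0.293 for all genes. The members were therefore tighter than the typical gene in both vehicle groups and wider than it in the NSC group. The comparison was not matched on expression level, with a median FPKM of 108 over members and 3.1 over all genes tested.

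Other properties moved with this pattern. NSC replicate 3 was the shallowest library, with 23997363 counts. Across all genes tested, the deviation in NSC replicate 3 had a Spearman rho of -0.275 with gene length and -0.225 with GC content. In NSC replicate 1 these were 0.216 and -0.463, and in NSC replicate 2 they were 0.062 and -0.458. Members are short, with a median length of 1454 bases against 3450.5 over all genes, while their median GC content of 50.9% lies close to the 49.7% of all genes. With the trend on length removed from each library, the member medians of NSC replicates 1, 2 and 3 were -0.18, -0.03 and 0.35. With the trend on GC content removed, they were -0.24, -0.03 and 0.51. The order of the 3 libraries was the same in both cases.

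Marker genes of other cells were read in the same libraries. Hepatocyte markers (7 genes, *Alb* and *Apoa1* among them) summed to 93800, 101000 and 112000 CPM in NSC replicates 1, 2 and 3, the order of the ribosomal protein genes, within the 89000 to 125000 CPM of the 6 other libraries. Most of that sum was *Alb*, at 81400, 84800 and 92600 CPM, while *Hnf4a* ran the other way, at 780, 668 and 570 CPM, and *Cyp2e1* had no such order, at 2090, 2340 and 2180 CPM. The 5 tested erythroid markers summed in the same order, at 129, 143 and 230 CPM, with 225 to 327 CPM at baseline and 105 to 185 CPM in vehicle remnants. *Alas2* had this order, at 23.8, 49.2 and 77.3 CPM, against 123 to 166 CPM at baseline, as did *Hba-a1* and *Hba-a2* at lower levels. *Hbb-bs* (66.3, 57.7 and 92.9 CPM) and *Hbb-bt* (22.6, 17.4 and 27.9 CPM) were lowest in replicate 2. The 6 macrophage markers were highest in NSC replicate 1, at 447, 278 and 293 CPM, against 144 to 208 CPM at baseline and 141 to 258 CPM in vehicle remnants. The 4 tested neutrophil markers were also highest in NSC replicate 1, at 17.4, 13.7 and 10.8 CPM, against 1.83 to 7.14 CPM at baseline and 7.9 to 15.7 CPM in vehicle remnants. The 6 tested lymphocyte markers summed to 2.55 to 3.25 CPM in NSC, 1.4 to 3.08 CPM in vehicle and 2.5 to 10.4 CPM in baseline libraries. Stellate markers stood at 430, 235 and 252 CPM in the 3 NSC libraries, 363 to 494 CPM in vehicle and 188 to 227 CPM in baseline libraries. Endothelial markers stood at 200, 112 and 127 CPM and cholangiocyte markers at 10.3, 11.4 and 8.73 CPM in NSC replicates 1, 2 and 3. Of the markers tested, 4 of 6 macrophage and 3 of 4 neutrophil genes were called higher in NSC remnants than at baseline, and 2 of 7 hepatocyte genes were called lower. Of all genes tested, 18.2% were called higher and 16.5% lower there. Among stellate and cholangiocyte genes, 2 of 6 and 2 of 4 were called higher, and 1 erythroid and 1 lymphocyte gene were lower. In vehicle remnants 2 macrophage, 1 neutrophil, 3 stellate and 3 cholangiocyte genes were called higher, against 12.7% of all genes. Lower there were 2 hepatocyte genes and 1 gene each of the endothelial, erythroid and lymphocyte markers, against 11%. In whole liver, fewer cells of a type and less RNA per cell cannot be told apart, and the part of cell makeup in the members' values was not tested.

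The first comparison asked how the family differs between the regenerating remnant and baseline in vehicle-treated mice. *Rpl22l1* and *Rpsa* rose, and no member fell (edgeR's quasi-likelihood test, Benjamini-Hochberg adjusted p under 0.05). Thus 2 of 84 members were called higher, against 12.7% of all genes tested, and 0 were called lower, against 11% of genes. At an unadjusted p under 0.05 the counts were 7 higher and 0 lower, against 19.4% and 17.7% of all genes. DESeq2 also called 2 of 87 members higher and 0 lower, against 4.96% and 4.72% of the 43346 genes listed. The median log2 fold change was 0.119 over members and 0.013 over all genes, 65 of 84 members lay above 0, and no member lay beyond 1 in absolute value, against 16.9% of genes. The median SE over members was 0.19. In this fit the 3 groups shared the same estimate of the spread, the NSC libraries included. With only the vehicle and baseline groups fitted, 12 of 84 members were called higher and 0 lower, against 16.4% and 14.1% of all genes. The member median was 0.10 to 0.13 under other library scalings and -0.01 when the libraries were scaled to the ribosomal protein genes themselves, which sets it near 0 by construction.

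Without overlap between the 3 vehicle and the 3 baseline libraries, 38 members (45.2%) were higher and 2 members were lower. The shares of all genes without overlap were 24.2% higher and 22% lower. The 2 lower members, named here after their values were seen, were *Rpl22* and *Rps23*.

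*Rpsa*, the laminin receptor and a protein of the small subunit, was at 400, 448 and 449 CPM at baseline and 675, 641 and 730 CPM in vehicle remnants. The groups did not overlap, and the log2 fold change was 0.66 ± 0.21 (SE), adjusted p = 0.0395 by edgeR. In NSC remnants it was at 468, 539 and 837 CPM, again above each baseline library, with a log2 fold change of 0.51 ± 0.21 and an adjusted p of 0.0779. The call in vehicle remnants was lost when any 1 baseline or vehicle library was left out, with adjusted p-values of 0.0632 to 0.132, and also without NSC replicate 2 (0.0503).

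The 3 P-stalk genes had the highest median of the roles in vehicle remnants, 0.509 on the log2 scale, and were not called. *Rplp0*, the base of the stalk, was at 292, 341 and 357 CPM at baseline, 470, 506 and 433 CPM in vehicle remnants and 306, 301 and 472 CPM in NSC remnants. *Rplp1* was at 175, 254 and 283 CPM at baseline, 394, 336 and 334 CPM in vehicle remnants and 174, 205 and 427 CPM in NSC remnants. *Rplp2*, its partner in the stalk dimers, was at 52.3, 69.8 and 69.0 CPM, then 85.2, 77.3 and 69.4 CPM, and then 46.3, 50.1 and 71.7 CPM. For *Rplp0* and *Rplp1* the vehicle libraries lay above each baseline library, and for *Rplp2* they overlapped. The log2 fold changes of vehicle against baseline were 0.51 ± 0.20 (adjusted p = 0.0776), 0.58 ± 0.31 (adjusted p = 0.199) and 0.28 ± 0.18 (adjusted p = 0.297) for *Rplp0*, *Rplp1* and *Rplp2* by edgeR, so none passed. Without NSC replicate 3 in the fit, *Rplp0* and *Rplp1* reached adjusted p-values of 0.0237 and 0.0425.

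*Rpl41*, which encodes the smallest protein of the ribosome, was at 201, 206 and 232 CPM at baseline and 307, 338 and 308 CPM in vehicle remnants. The groups did not overlap, and the log2 fold change was 0.58 ± 0.23 with an adjusted p of 0.0854 by edgeR. In NSC remnants it was at 204, 214 and 392 CPM, so 2 of these libraries lay within the baseline range. *Rpl13a*, a large subunit protein also known for a role in silencing inflammatory messages, was at 306, 317 and 350 CPM, 419, 375 and 410 CPM, and 299, 313 and 503 CPM in the 3 groups, with log2 fold changes of 0.31 ± 0.20 and 0.20 ± 0.20 against baseline.

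*Rps6*, *Rpl5*, *Rpl11*, *Rpl23*, *Rps19* and *Rps14* were not called in any comparison. *Rps6*, the small subunit protein phosphorylated by S6 kinase below mTOR, was at 145, 161 and 155 CPM at baseline, 144, 159 and 142 CPM in vehicle remnants and 115, 138 and 191 CPM in NSC remnants. *Rpl5*, *Rpl11* and *Rpl23*, which can bind Mdm2 when ribosome assembly is disturbed, had log2 fold changes in vehicle remnants of -0.08 ± 0.15, -0.02 ± 0.19 and 0.02 ± 0.17. In NSC remnants these were 0.12 ± 0.15, 0.15 ± 0.19 and 0.25 ± 0.17, with adjusted p-values of 0.571, 0.588 and 0.269 by edgeR. *Rps19* and *Rps14*, whose human counterparts are linked to Diamond-Blackfan anemia and to the 5q- syndrome, had log2 fold changes of 0.26 ± 0.22 and -0.01 ± 0.19 in vehicle remnants and of 0.12 ± 0.22 and -0.01 ± 0.19 in NSC remnants.

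**Figure D2:**
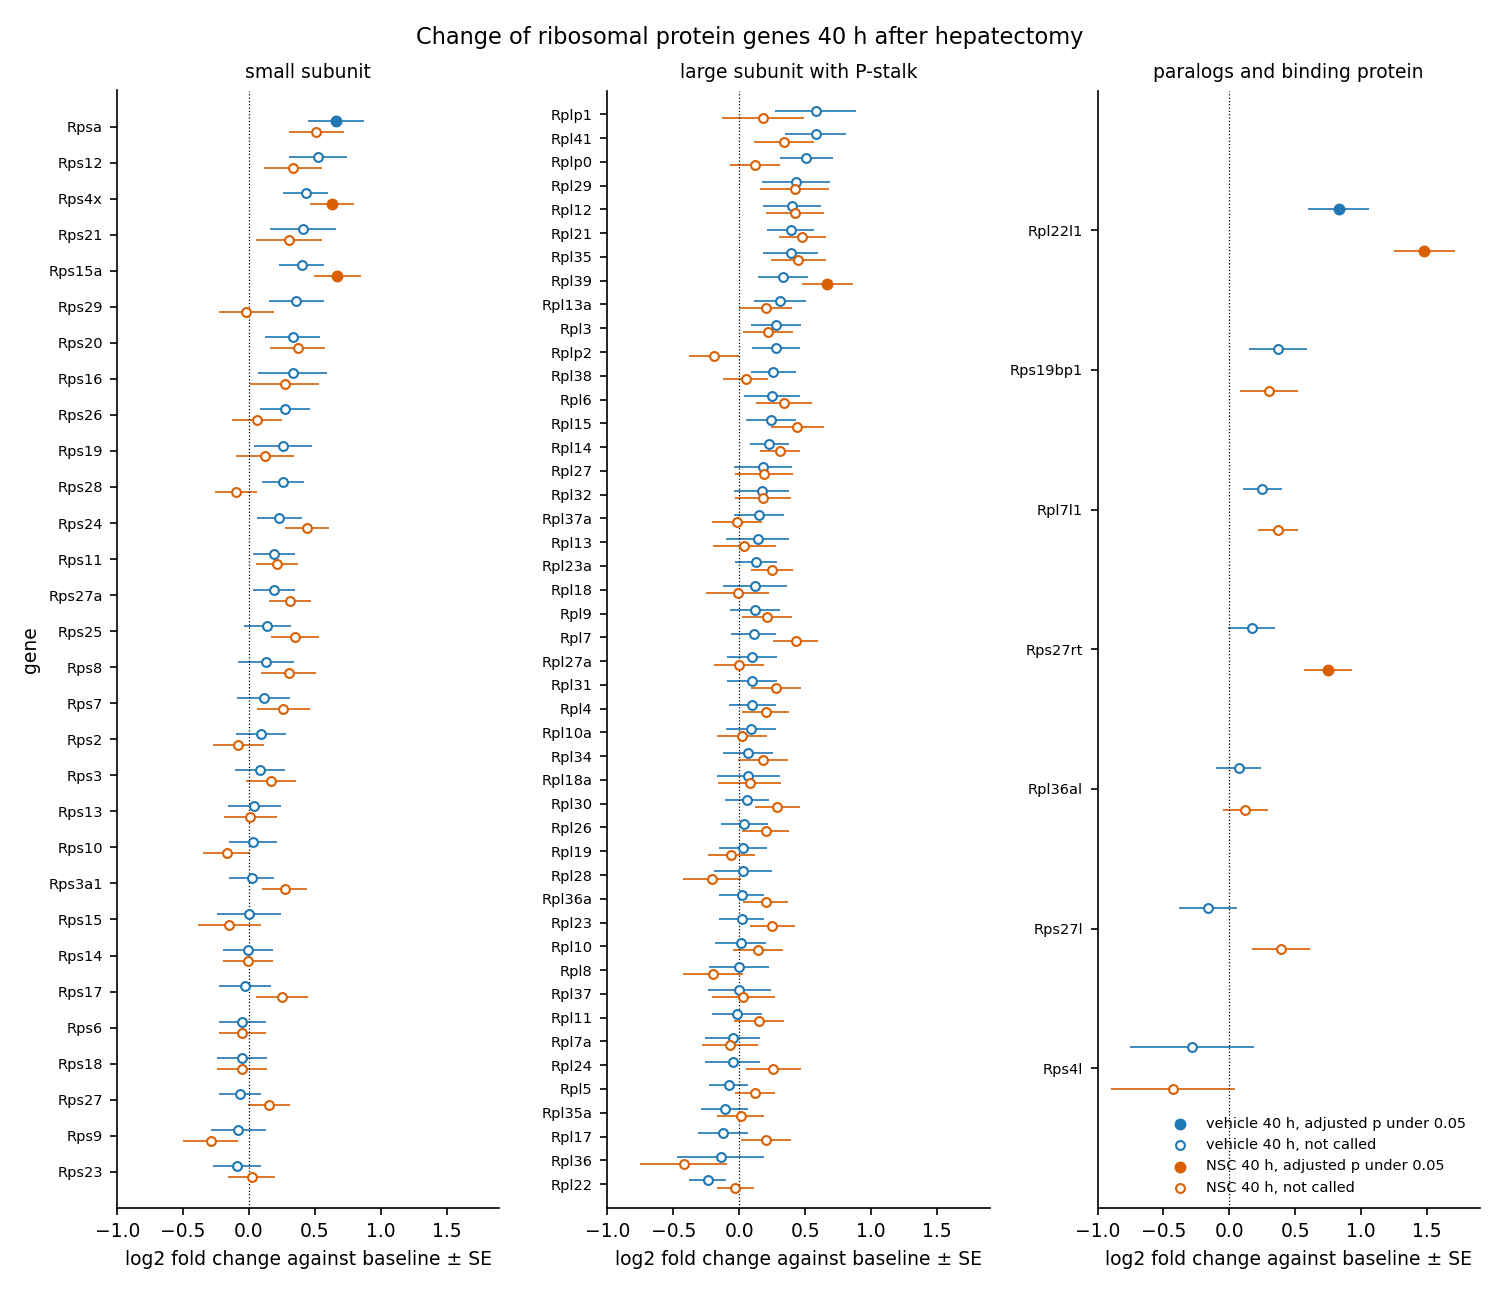
Log2 fold change against baseline ± SE (x axis) of the tested ribosomal protein genes (y axis, 1 gene not drawn), in vehicle remnants (blue) and NSC remnants (orange), by subunit. Filled points have an adjusted p under 0.05: *Rpl22l1* and *Rpsa* in vehicle remnants, and *Rpl22l1*, *Rps27rt*, *Rps15a*, *Rpl39* and *Rps4x* in NSC remnants. Both comparisons share the baseline libraries.

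The second comparison set NSC remnants against the same baseline. *Rpl22l1*, *Rps27rt*, *Rps15a*, *Rps4x* and *Rpl39* rose, and no member fell. These 5 higher calls stand against 18.2% of all genes tested, and the 0 lower calls against 16.5%. At an unadjusted p under 0.05 the counts were 11 higher and 0 lower, against 23.5% and 21.8% of all genes. DESeq2 called 7 of 87 members higher and 0 lower, against 6.78% and 6.31% of the 43346 genes listed. Without overlap, 13 members (15.5%) were higher and 0 lower, against 24% and 23.1% of all genes. The median log2 fold change was 0.193 over members and 0.013 over all genes, and 65 of 84 members lay above 0. The member median stayed above 0 under the other library scalings, but it was -0.07 without NSC replicate 3 and 0.33 without NSC replicate 1, so its direction rests on NSC replicate 3. One member lay beyond 1 in absolute value (*Rpl22l1*), against 20.2% of all genes.

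**Figure D3:**
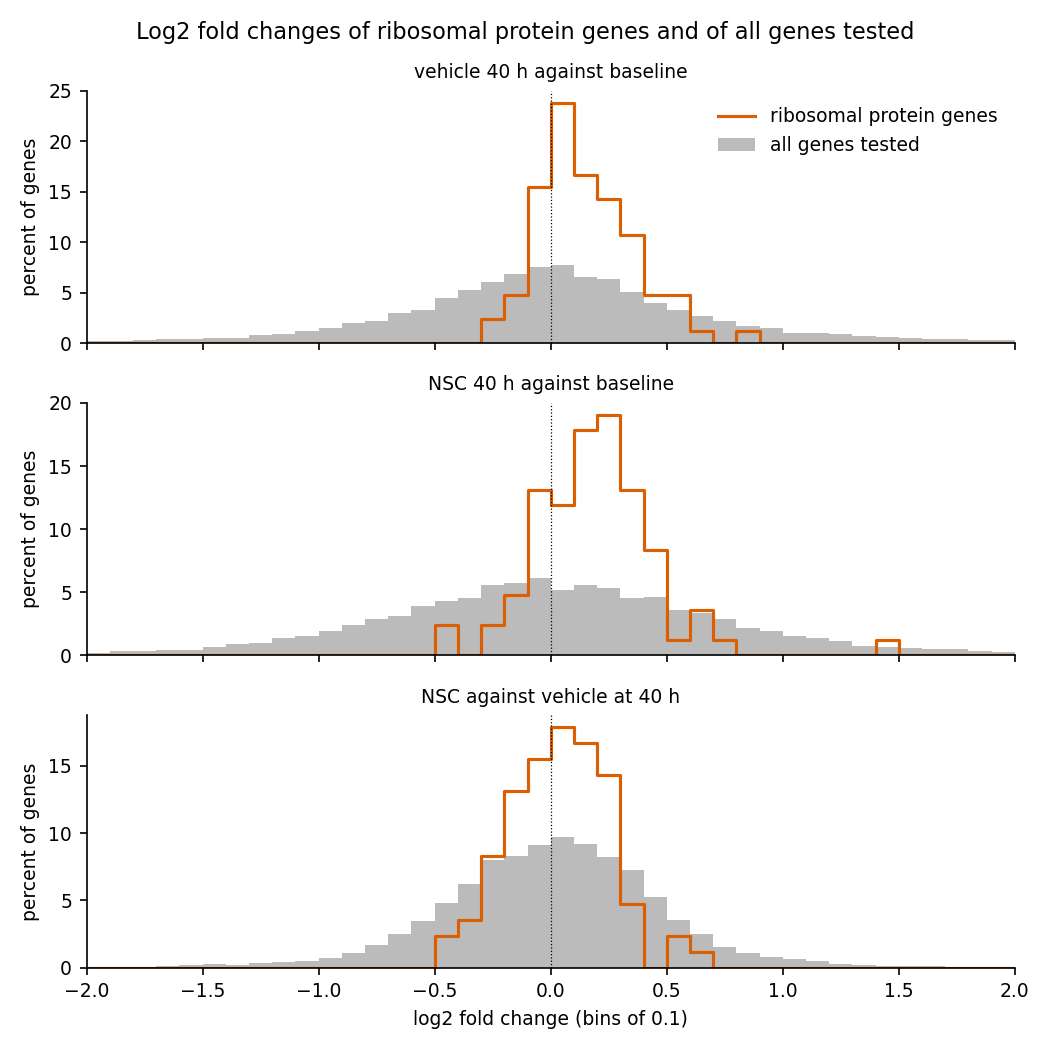
Percent of genes (y axis) in each bin of log2 fold change (x axis, bins of 0.1, drawn from -2 to 2) for 84 ribosomal protein genes (orange line) and 15024 genes tested (grey bars), in the 3 comparisons. The members are narrower than all genes in each panel, and their medians are 0.119, 0.193 and 0.028.

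*Rps15a*, a small subunit gene, was at 111, 97.4 and 89.7 CPM at baseline, 129, 117 and 146 CPM in vehicle remnants and 134, 144 and 196 CPM in NSC remnants. Both 40 h groups lay above baseline without overlap, and the log2 fold change in NSC remnants was 0.67 ± 0.18 (adjusted p = 0.0116 by edgeR). *Rps4x*, the X-linked gene of a small subunit protein, was at 263, 259 and 242 CPM, 331, 311 and 384 CPM, and 347, 352 and 486 CPM in the 3 groups. Here too neither 40 h group overlapped baseline, with log2 fold changes of 0.43 ± 0.17 (adjusted p = 0.094) and 0.63 ± 0.17 (adjusted p = 0.0143).

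*Rpl39*, an X-linked gene of a small protein that lines the exit tunnel of the large subunit, was at 108, 92.9 and 88.3 CPM at baseline, 121, 105 and 138 CPM in vehicle remnants and 129, 135 and 196 CPM in NSC remnants. The NSC libraries lay above each baseline library (0.67 ± 0.19, adjusted p = 0.0161 by edgeR), while the vehicle libraries overlapped baseline. Without baseline replicate 3, the calls of *Rps15a*, *Rps4x* and *Rpl39* in NSC remnants were lost, at adjusted p-values of 0.0573, 0.0626 and 0.0699. Left with 1 NSC library, replicate 2, which is assumed to vary like the other groups, the fit gave 0.0625, 0.102 and 0.0999, while *Rpl22l1* and *Rps27rt* stayed called.

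Without NSC replicate 1, 19 members were called higher in NSC remnants, and without NSC replicate 3, 5 were higher and 5 were lower. In the same fits, 17.8% of all genes were higher without NSC replicate 1, and 17.5% were higher and 16.1% lower without NSC replicate 3. The 5 lower were *Rpl28*, *Rpl36*, *Rps9*, *Rps10* and *Rps15*. With all 9 libraries their log2 fold changes were -0.21 ± 0.22, -0.42 ± 0.33, -0.29 ± 0.21, -0.17 ± 0.18 and -0.15 ± 0.24, and none was called. *Rpl36*, *Rps10* and *Rps15* are among the most GC-rich members, at 60.8%, 60.3% and 62.4% GC, and *Rpl28* and *Rps9* have 52.6% and 52%. The 5 called higher have 43.5% (*Rpl22l1*), 45.4% (*Rps15a*), 46% (*Rps27rt*), 48.5% (*Rps4x*) and 48.7% (*Rpl39*). The GC-rich *Rpl29* (60.5%) went the other way, with a log2 fold change of 0.42 ± 0.26 in NSC remnants with all 9 libraries. Over the 84 members, the Spearman rho of the log2 fold change with GC content was -0.43 in NSC remnants and -0.02 in vehicle remnants against baseline, and over 14900 genes it was -0.41 and -0.13. With the GC trend removed from each library, 4 members were called higher in vehicle remnants and 11 in NSC remnants, with 0 lower in either, against 13.7% and 15.5% of all genes called higher, and *Rps15a* was no longer called (adjusted p = 0.0566).

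**Figure D4:**
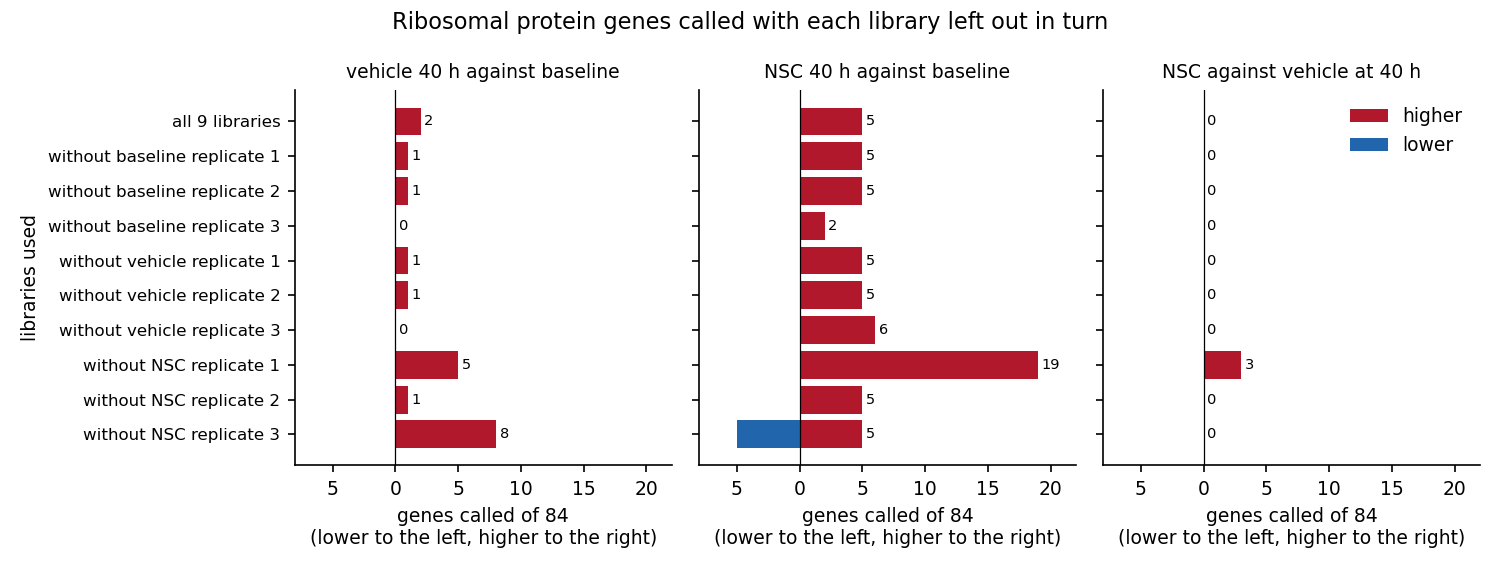
Number of the 84 ribosomal protein genes with an adjusted p under 0.05 (x axis, higher to the right, lower to the left) in the 3 comparisons, with all 9 libraries and with each library left out in turn (y axis). The count in NSC remnants is 19 without NSC replicate 1 and 5 higher with 5 lower without NSC replicate 3.

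The direct comparison of NSC with vehicle remnants gave 0 members called higher and 0 called lower, against 0% and 0.0399% of all genes tested. At an unadjusted p under 0.05, edgeR had 3 members higher and 2 lower, against 9.3% and 10.2% of all genes. DESeq2 called 0 members, and 276 genes higher and 457 lower over the whole table. One member was higher without overlap (*Rpl22*, 1.19%) and 0 were lower, against 10.3% and 12.2% of all genes. The median log2 fold change was 0.028 over members and 0.015 over all genes, with 48 members above 0 and 36 below. Without NSC replicate 3 the member median was -0.25, and without NSC replicate 1 it was 0.20.

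The 95% intervals bound what a difference could have been. The intervals reached a median of 0.42 on the log2 scale to either side. The interval lay within 1 log2 unit of 0 for 79 of 84 members, against 63.9% of all genes. Members and all genes were not matched on expression level here. *Rps6* had a difference of 0.00 with an interval of -0.40 to 0.39, and *Rps14* one of 0.00 with an interval of -0.42 to 0.42. The P-stalk genes were on the lower side, at -0.38 (-0.81 to 0.04) for *Rplp0*, -0.40 (-1.08 to 0.28) for *Rplp1* and -0.47 (-0.87 to -0.06) for *Rplp2*. Their adjusted p-values were 0.295, 0.493 and 0.202 by edgeR, so none passed, and NSC replicate 3 lay within or above the range of the vehicle libraries for each. As in the comparison with baseline, the difference was related to GC content, with a Spearman rho of -0.56 over the 84 members and -0.56 over 14900 genes.

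Medians of the small and the large subunit were close. The median log2 fold changes of the 31 small subunit genes were 0.142 in vehicle remnants against baseline, 0.179 in NSC remnants against baseline and -0.002 between the treatments. For the 46 large subunit genes, P-stalk included, they were 0.104, 0.185 and 0.047. The 7 tested paralogs and binding proteins had medians of 0.166, 0.368 and 0.121, and they held the largest change of the family.

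*Rpl22l1*, a paralog of *Rpl22* that is known for roles in development and in RNA splicing (chr3:28805436-28807424 in the deposited table), was that gene. It was at 34.8, 35.2 and 22.2 CPM at baseline, 50.2, 47.2 and 66.7 CPM in vehicle remnants and 63.7, 85.0 and 108 CPM in NSC remnants. Both 40 h groups lay above baseline without overlap, and the vehicle and NSC libraries overlapped each other. The log2 fold changes were 0.83 ± 0.23 (adjusted p = 0.0222) and 1.48 ± 0.23 (adjusted p = 0.000858) against baseline and 0.65 ± 0.23 (adjusted p = 0.168) between the treatments, by edgeR. In NSC remnants the call held under each of 24 other settings, with log2 fold changes of 1.15 to 1.65. In vehicle remnants it was lost without baseline replicate 3 (adjusted p = 0.0822) or vehicle replicate 3 (adjusted p = 0.0924), and with the GC trend removed and a replicate block added (adjusted p = 0.057). Of the stretches of 50 bases in the *Rpl22l1* transcript, 65.6% also occur in transcripts of other genes, against 24.5% for *Rpl22*. Apart from adding pseudogene counts to parents, the settings did not change how reads from such stretches were counted.

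*Rpl22* itself, on chromosome 4, was at 115, 111 and 106 CPM at baseline, 89.5, 93.1 and 98.6 CPM in vehicle remnants and 99.8, 100 and 125 CPM in NSC remnants. Its log2 fold change in vehicle remnants was -0.24 ± 0.14 with an adjusted p of 0.231, so it was not called. The ratio of *Rpl22l1* to *Rpl22*, which compares 2 genes within a library and so does not depend on library scaling, was 30.3%, 31.6% and 20.9% at baseline. It was 56.1%, 50.7% and 67.6% in vehicle remnants and 63.8%, 84.8% and 86.1% in NSC remnants. Each 40 h group lay wholly above baseline, and the 2 treatments overlapped at 1 library each. GC content was 43.5% for *Rpl22l1* and 49.2% for *Rpl22*. The ratios were not corrected for the GC trend of the libraries, and its part in them was not tested. The exact permutation test gave p = 0.1 for both comparisons with baseline, the smallest value that 3 against 3 libraries allow, and 0.2 between the treatments (two-sided, adjusted to 0.233, 0.233 and 0.28 over 7 gene pairs).

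**Figure D5:**
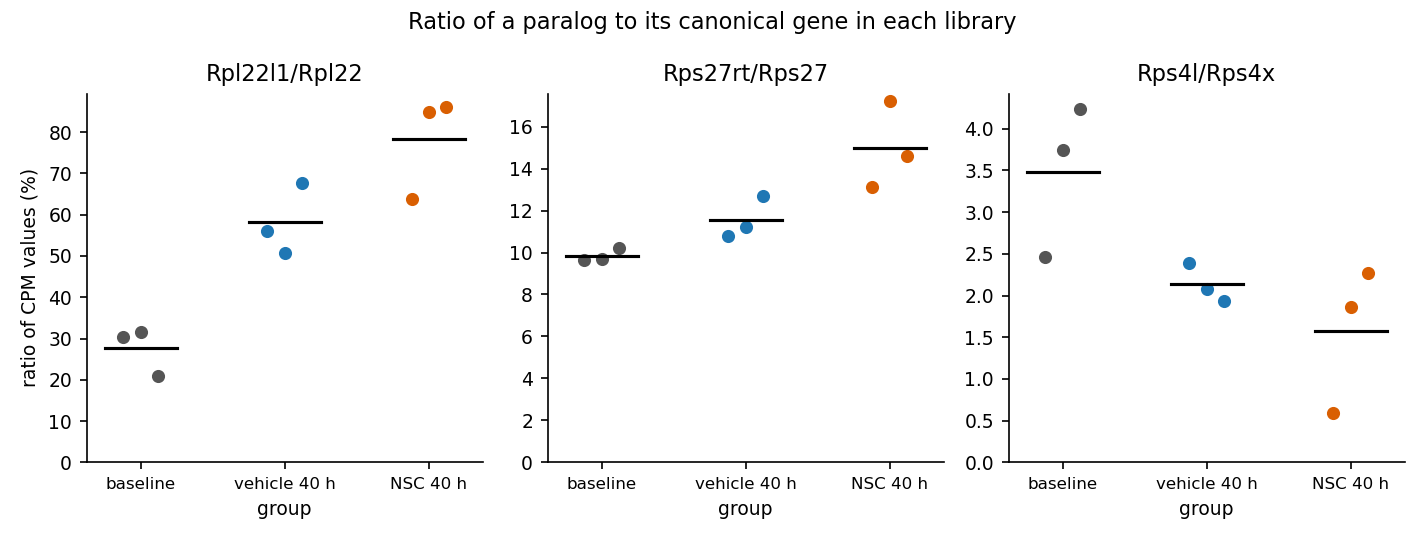
Ratio of the CPM of a paralog to that of its canonical gene, in percent (y axis), in the 3 libraries of each group (x axis, replicates 1 to 3 from left to right, line at the mean) for 3 gene pairs. *Rpl22l1* to *Rpl22* is 20.9% to 31.6% at baseline, 50.7% to 67.6% in vehicle remnants and 63.8% to 86.1% in NSC remnants.

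*Rps27rt*, a copy of *Rps27* on chromosome 9 (chr9:114982371-114982740), was at 14.2, 13.2 and 12.0 CPM at baseline, 12.5, 13.8 and 17.9 CPM in vehicle remnants and 17.7, 22.8 and 25.8 CPM in NSC remnants. The NSC libraries lay above each baseline library, with a log2 fold change of 0.75 ± 0.18 (adjusted p = 0.00813 by edgeR), and the vehicle libraries overlapped baseline (0.17 ± 0.18, adjusted p = 0.552). Its ratio to *Rps27* was 9.64%, 9.71% and 10.2% at baseline, 10.8%, 11.2% and 12.7% in vehicle remnants and 13.1%, 17.2% and 14.6% in NSC remnants, without overlap in any of the 3 pairs of groups (exact permutation p = 0.1 each). These levels are uncertain: 91.1% of the stretches of 50 bases in the *Rps27rt* transcript and 98.6% of those in *Rps27* also occur in transcripts of other genes. Reads from such stretches match more than 1 gene, and how they were counted is not given in the sources used here. GC content was 46% for *Rps27rt* and 55.4% for *Rps27*, and the part of the GC trend in their ratio was not tested.

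*Rps27l*, a paralog that p53 can induce, was at 144, 136 and 127 CPM at baseline, 113, 108 and 143 CPM in vehicle remnants and 117, 181 and 236 CPM in NSC remnants. Groups overlapped, and its log2 fold changes were -0.16 ± 0.22, 0.39 ± 0.22 and 0.55 ± 0.22 in the 3 comparisons, with adjusted p-values of 0.65, 0.19 and 0.208 by edgeR. Without NSC replicate 1, *Rps27l* was called higher in NSC than in vehicle remnants (0.78, adjusted p = 0.0224), together with *Rpl22l1* and *Rps27rt*. These are 3 of 84 members, and 3.73% of all genes were called higher in that fit.

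*Rps4l* was not called in any comparison and was at 6.48, 9.68 and 10.3 CPM at baseline, 7.91, 6.45 and 7.46 CPM in vehicle remnants and 2.07, 6.55 and 11.0 CPM in NSC remnants. Its ratio to *Rps4x* was 2.46%, 3.74% and 4.24% at baseline, 2.39%, 2.08% and 1.94% in vehicle remnants and 0.596%, 1.86% and 2.27% in NSC remnants. Both 40 h groups lay below baseline without overlap (exact permutation p = 0.1 each, adjusted to 0.233). GC content was 59.1% for *Rps4l* and 48.5% for *Rps4x*, and the part of the GC trend in this ratio was not tested. For *Rpl7l1* to *Rpl7*, *Rpl36al* to *Rpl36a*, *Rps27l* to *Rps27* and *Rps19bp1* to *Rps19*, the ratios of the groups overlapped in each comparison. *Rpl7l1* was at 57.0 to 63.2 CPM at baseline, 65.4 to 85.8 CPM in vehicle remnants and 70.6 to 87.1 CPM in NSC remnants, with log2 fold changes of 0.25 ± 0.15 and 0.37 ± 0.15, and its partner *Rpl7* had 0.11 ± 0.17 and 0.43 ± 0.17. *Rpl36al* and *Rpl36a* had log2 fold changes of 0.07 ± 0.17 and 0.02 ± 0.17 in vehicle remnants.

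Many members share sequence with other genes. Over 86 members with a GENCODE M21 transcript, a median of 58.7% of the stretches of 50 bases also occurred in transcripts of another gene, with more than 90% shared in 7 members. *Rps19bp1*, *Rpl3l* and *Rpl39l* were among those that shared none. The table also listed 252 rows named as pseudogenes of this family, 62 of them without a count in any library. These rows held 3.72 to 4.04 counts per 100 member counts in the 9 libraries. For 251 of the 252 the parent was a member, and adding those to their parent genes left the counts of called members at 2, 5 and 0 in the 3 comparisons.

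The members' levels were related across libraries. Over the 3486 pairs of members, the median Pearson r of log2 CPM was 0.72 over the 9 libraries and 0.31 over the 6 baseline and vehicle libraries. The libraries share depth and scaling between members, so this describes the libraries.

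Other genes of the translation apparatus were read from lists written from general knowledge. The counts of each list stand against the 12.7% of all genes called higher and 11% called lower in vehicle remnants, and the 18.2% and 16.5% in NSC remnants. Among subunit genes that carry other names, *Fau*, which encodes the small subunit protein Rps30 fused to a ubiquitin-like domain, fell in NSC remnants. It was at 116, 133 and 152 CPM at baseline, 93.4, 115 and 86.8 CPM in vehicle remnants and 47.1, 67.1 and 113 CPM in NSC remnants, with a log2 fold change of -0.82 ± 0.27 (adjusted p = 0.0368 by edgeR). *Gnb2l1*, which encodes the scaffold Rack1, had 0.08 ± 0.20 in the same comparison and was not called.

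Of 35 initiation factor genes, 3 were called higher and 3 lower in vehicle remnants, and 5 higher and 2 lower in NSC remnants, with median log2 fold changes of 0.03 and -0.02. *Eif4e*, the cap-binding protein, rose in both, by 0.64 ± 0.16 (adjusted p = 0.0139) and 1.14 ± 0.16 (adjusted p = 0.00044). *Eif4b*, itself a TOP messenger RNA, fell by 0.82 and by 0.75 on the log2 scale. Of 10 elongation and termination factor genes, 2 were higher and 0 lower in vehicle remnants, and 4 were higher and 1 lower in NSC remnants. The lower one was *Eef2*, the translocation factor and a TOP messenger RNA, at 1200, 1360 and 1360 CPM at baseline, 988, 1190 and 733 CPM in vehicle remnants and 545, 602 and 634 CPM in NSC remnants (-1.14 ± 0.19, adjusted p = 0.00118). *Eef1e1*, a factor of the tRNA synthetase complex, rose in NSC remnants by 1.00 ± 0.23 (adjusted p = 0.0057). *Abce1*, which recycles ribosomes, rose by 0.58 ± 0.15 and 0.93 ± 0.15.

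The 15 other TOP messenger RNAs listed, which include the *Eif4b* and *Eef2* just given, had 1 call higher and 1 lower in vehicle remnants and 5 higher and 3 lower in NSC remnants. Their median log2 fold changes were -0.05 and 0.11. *Vim*, which encodes vimentin of mesenchymal cells, rose by 1.60 ± 0.34 and 1.02 ± 0.34, beside stellate cell markers with 3 and 2 of 6 called higher in the same comparisons.

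Ribosome assembly factors were the list with the highest median in vehicle remnants among the translation lists, at 0.25 over 12 genes, with 3 higher and 0 lower. In NSC remnants the median was 0.29, with 3 higher and 2 lower. *Nop58*, a core protein of the box C/D particles that modify ribosomal RNA, was at 19.3, 16.0 and 15.8 CPM at baseline, 38.7, 29.2 and 45.4 CPM in vehicle remnants and 46.9, 67.5 and 51.7 CPM in NSC remnants. Both 40 h groups lay wholly above baseline, with log2 fold changes of 1.15 ± 0.19 (adjusted p = 0.00155) and 1.70 ± 0.19 (adjusted p = 0.000119). Its partner *Nop56* rose by 0.77 ± 0.13 and 1.02 ± 0.13. *Aamp*, listed here as a chaperone of a ribosomal protein, fell by 0.79 on the log2 scale in NSC remnants.

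Of 13 genes of mTOR signaling and TOP control, 0 were higher and 2 lower in vehicle remnants, and 2 were higher and 6 lower in NSC remnants, with medians of -0.24 and -0.39. *Tsc1*, which encodes a brake on mTOR, fell by 0.74 and by 0.84 on the log2 scale. *Tsc2*, its partner, had -0.34 ± 0.15 (adjusted p = 0.106) in vehicle remnants and -0.92 ± 0.15 (adjusted p = 0.000848) in NSC remnants. *Myc*, a driver of ribosome production, fell by 1.09 and by 1.35 on the log2 scale. The other genes called lower in NSC remnants were *Rps6kb2* (-0.75 ± 0.15), *Rptor* (-0.66 ± 0.15) and *Eif4ebp2* (-0.63 ± 0.20). Those called higher were *Rheb* (0.64 ± 0.16) and *Rps6kb1* (0.40 ± 0.14).

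The 77 nuclear genes of the mitochondrial ribosome had medians of -0.05, 0.01 and 0.12 in the 3 comparisons. In vehicle remnants 1 was higher and 2 were lower, and in NSC remnants 10 were higher and 6 lower. Their median deviation in NSC replicates 1, 2 and 3 was -0.22, 0.02 and 0.29, against -0.12 to 0.06 in the 6 other libraries. Among those called were *Mrpl38* and *Mrpl2*, which fell by 0.84 and by 0.81 on the log2 scale, and *Mrpl50*, which rose by 0.80, all in NSC remnants. The order of the NSC libraries was that of the cytosolic members, over a smaller range. In the direct comparison of NSC with vehicle remnants, 0 genes of these translation lists were called.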

How the data were processed

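RNA-Seq of whole mouse liver was analysed from 9 libraries in 3 groups of 3. The kit selects polyadenylated RNA and keeps strand. The authors aligned reads with STAR 2.6.1 as part of MAP-RSeq, counted them with featureCounts of Subread 1.5.1 and deposited unscaled read counts per gene. The deposited FPKM values are those counts per gene length and library total, computed by the authors. The study's methods name a human reference, whereas identifiers and coordinates in the table are mouse ones (GRCm38), and the handling of reads that match several genes is not given in the sources used here.

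Tests on counts used edgeR 4.0.16 under R 4.3.3 (TMM scaling, filterByExpr, robust quasi-likelihood fit of all 9 libraries with the group as the only term) and Benjamini-Hochberg adjustment over 15024 genes. Standard errors were derived from each log2 fold change and its F statistic. Deviations and within-group SDs use log2 CPM with a prior count of 2. Gene pairs were compared by exact permutation. DESeq2 1.42.0 and limma 3.58.1 were also used, and Python 3.11.15, pandas 2.3.3 and matplotlib 3.10.9 served for sequences and plots. The procedure was tested on simulated data.

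Members and lists were chosen with earlier results of these data known. Genes were named by role, as paralog pairs, as up to 5 calls per direction and comparison with the smallest adjusted p and no overlap, as the 3 highest and 3 lowest by FPKM, and where they failed the filter. From the lists, up to 4 called genes with the largest absolute log2 fold change were named, with *Gnb2l1* beside them. For mTOR signaling and TOP control, every called gene was named, a choice made after values were seen. Results of some genes are not reported here. Members called lower without NSC replicate 3, *Rpl22* and *Rps23* as members without overlap, and the start sequences were chosen after values were seen. Alternatives were other scalings and filters, DESeq2, a block for the replicate number, fits of just the 2 groups in question, removal of length or GC trends (loess, span 0.5, with GC content known for 99.2% of tested genes), pseudogene counts added to parents, an added requirement of a log2 fold change over 1.5, and each library left out. Scaling to the family and use of NSC replicate 2 alone were chosen after seeing the data. Chi-square per gene ranged from 22.9 to 140 for pairs of libraries within a group, far above sampling noise. Floors of 3 counts cover counting error only. The 37 mitochondrially encoded genes listed had 0 counts in each library and were not used.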

Additional observations from a re-analysis of the deposited data

How the results depend on the processing

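Vehicle against baseline, the count of members called higher (2) was 12 with only the 2 groups compared. It was 8 with the length trend removed and 4 with the GC trend removed. When scaled to the ribosomal protein genes it was 1, against 6.68% of all genes. It was 1 among canonical subunits only and 0 with a log2 fold change over 1.5 also required. Leaving out 1 library gave 0 to 8, with 0 when baseline or vehicle replicate 3 was missing, 5 when NSC replicate 1 was missing and 8 when NSC replicate 3 was missing. NSC against baseline, the count of higher calls (5) was 12 by library size only. It was 11 with the length trend removed and 11 with the GC trend removed. When scaled to the ribosomal protein genes it was 2, against 9.71% of all genes. It was 3 among canonical subunits only and 0 with that fold threshold. The share of all genes at the fold threshold is not given here. Leaving out 1 library gave 2 to 19 higher calls, with 2 without baseline replicate 3 and 19 without NSC replicate 1. The count of lower calls (0) was 0 to 5 when 1 library was left out, with 5 without NSC replicate 3. NSC against vehicle, higher calls (0) were 0 to 3 when 1 library was left out, with 3 without NSC replicate 1. That fit called 3.73% of all genes higher. For vehicle against baseline, the share of genes called higher was 16.4% with only the 2 groups compared and 13.4% with the length trend removed. It was 13.7% with the GC trend removed and 7.96% to 15.8% with 1 library left out. For NSC against baseline it was 22.6% by library size only, 19.2% with the length trend removed and 15.5% with the GC trend removed. With 1 library left out it was 12% to 17.8%. The median log2 fold change of members ran from -0.07 to 0.33 for NSC against baseline and from -0.25 to 0.20 for NSC against vehicle when 1 library was left out, with the lowest values without NSC replicate 3. Under library size only, the median of all genes was 0.154 and 0.142 in these 2 comparisons, and the member medians were 0.33 and 0.15. Scaling to the ribosomal protein genes moved the median of all genes to -0.11 for vehicle against baseline. Over all genes, library size only gave 3399 higher and 1795 lower calls for NSC against baseline, where TMM gave 2728 and 2479. Scaling to the family gave 1459 higher and 2152 lower. The causes of these shifts were not tested.

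Replicate numbers were not taken as pairs, since same-numbered libraries of different groups correlated at -0.048 to 0.134 in their deviations. With the replicate block alone, the counts of called members were 2, 5 and 0 in the 3 comparisons and changed no call. With the block and the length trend removed they were 8 and 8 higher against baseline, and with the block and the GC trend removed 4 and 13. The shares of all genes called higher in these fits were 13% and 18.5%, and 13.9% and 15.3%. No alternative turned the direction of a called member. Precision is limited by 3 libraries per group and by the spread between the NSC libraries. In the main fit the groups shared the same estimate of the spread, so the NSC libraries also entered the SEs of vehicle against baseline.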
